A study of Mus musculus with 10 samples.

Results

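The Myc family genes examined here were Myc, Mycn, Mycl1 and Max, 4 of the 37310 genes in the GENCODE annotation of the mouse genome NCBIM37 (mm9), chosen by symbol. Their H3K27me3, the trimethyl mark on lysine 27 of histone H3, was read from ChIP-seq peak lists of 5 lines of B-cell lymphoma. The parental line came from a C57BL/6J mouse with the genotypes Eμ-Myc and Cdkn2a-/-, so all lines carry the Myc transgene, which an immunoglobulin heavy chain enhancer restricts to the B lineage, and all lack Cdkn2a. Stepwise culture of this line with the alkylating drug mafosfamide gave 4 resistant sub-clones: R100 at 100 nM on day 10, R500 at 500 nM on day 18, R1000 at 1000 nM on day 23 and R4000 at 4000 nM on day 37. All lines were grown without the drug for ChIP-seq. There was 1 list per line, so no spread between cultures could be computed and no difference between lines was tested. DNA methylation was not analysed here.

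Myc, Mycn and Mycl1 (now called Mycl) encode related transcription factors with a basic helix-loop-helix leucine zipper domain. Each binds DNA as a dimer with Max, at E-boxes such as CACGTG, and drives genes of cell growth, while Max also pairs with the repressors of the Mxd group. Myc is the oncogene of Burkitt's lymphoma. Mycn and Mycl are better known from neural and lung tumours. H3K27me3 is placed by polycomb repressive complex 2 (PRC2) and is found at CpG-rich start sites of silent genes.

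The values are the bases of each gene covered by peaks, from 5 kb upstream of the transcription start site (TSS) to the end of the gene. A gene was called covered with at least 150 bp, or 3 bins of the 50 bp grid on which all peaks lie. The lists give positions only, with no height or read count, so the sequencing depth is unknown. The parental list held 10778 peaks and those of R100, R500, R1000 and R4000, the order kept throughout, held 25180, 21888, 9595 and 6820, and more peaks raise the covered bases of genes in general. Reads from the Myc transgene and from the endogenous gene cannot be told apart in these lists. Cdkn2a had 0 bp covered in each line. This does not check its deletion, because an intact gene without the mark would give the same value. A peak list holds no expression, so marker genes do not check cell identity either. Of 8 B-cell marker genes, 0 were covered in the parental line and 3, 4, 2 and 1 in R100 to R4000. Of 4 T-cell genes, 2 were covered in the parental line and 2, 3, 1 and 1 in the others, and of 5 myeloid and erythroid genes 0 in each. By the same rule 5.82% of all genes were covered in the parental line and 15.8%, 12.7%, 6.63% and 5.39% in R100 to R4000.

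The sequences below carry the peaks that the results turn on, with Max for comparison, read from the NCBIM37 genome 5′ to 3′ on the strand of the gene with CpG dinucleotides in capitals. The first lies in intron 1 of Myc (chr15:61817701-61818000, plus strand), 755 to 1054 bp downstream of the TSS, and all of its 300 bp were covered in each of the 5 lines. The next pair lies in coding sequence of Mycl1 (chr4:122673766-122673900 and chr4:122674151-122674250, plus strand), the former from the start codon on, and was also covered in full in each line. The fourth is the middle of the widest R100 peak of Mycn (chr12:12948001-12948300, minus strand), which no other line had. The last is the 300 bp upstream of the TSS of Max (chr12:78063236-78063535, minus strand), with no peak in any line.
Myc intron: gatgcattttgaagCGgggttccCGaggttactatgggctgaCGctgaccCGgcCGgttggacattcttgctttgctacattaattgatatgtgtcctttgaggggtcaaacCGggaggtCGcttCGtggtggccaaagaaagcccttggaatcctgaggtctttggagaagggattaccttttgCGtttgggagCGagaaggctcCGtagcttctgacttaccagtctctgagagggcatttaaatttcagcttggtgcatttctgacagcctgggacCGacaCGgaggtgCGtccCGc
Mycl1 coding, first stretch: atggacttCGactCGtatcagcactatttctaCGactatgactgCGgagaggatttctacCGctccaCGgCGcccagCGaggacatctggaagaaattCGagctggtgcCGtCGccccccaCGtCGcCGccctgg
Mycl1 coding, second stretch: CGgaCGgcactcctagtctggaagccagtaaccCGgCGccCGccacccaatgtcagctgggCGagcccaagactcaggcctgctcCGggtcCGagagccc
Mycn intron: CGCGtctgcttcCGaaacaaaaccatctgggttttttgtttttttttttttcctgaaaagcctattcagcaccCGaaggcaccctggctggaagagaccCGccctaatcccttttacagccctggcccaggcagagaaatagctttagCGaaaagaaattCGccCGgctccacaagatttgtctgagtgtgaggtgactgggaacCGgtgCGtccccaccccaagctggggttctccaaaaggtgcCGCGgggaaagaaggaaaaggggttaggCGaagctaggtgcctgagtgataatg
Max upstream: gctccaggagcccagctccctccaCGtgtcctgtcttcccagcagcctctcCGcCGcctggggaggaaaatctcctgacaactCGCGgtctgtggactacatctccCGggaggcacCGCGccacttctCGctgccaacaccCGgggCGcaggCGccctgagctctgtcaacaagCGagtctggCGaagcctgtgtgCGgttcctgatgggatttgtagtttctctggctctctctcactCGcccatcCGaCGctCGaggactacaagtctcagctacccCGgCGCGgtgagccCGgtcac
These stretches hold 15 CpG in Myc, 14 and 8 in Mycl1, 13 in Mycn and 23 in Max. The E-box CACGTG, which reads the same on both strands, occurred 1 time in the Max stretch and 0 times in the others. It was present in the 300 bp upstream of the TSS in 5.88% of all genes.

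**Figure D1:**
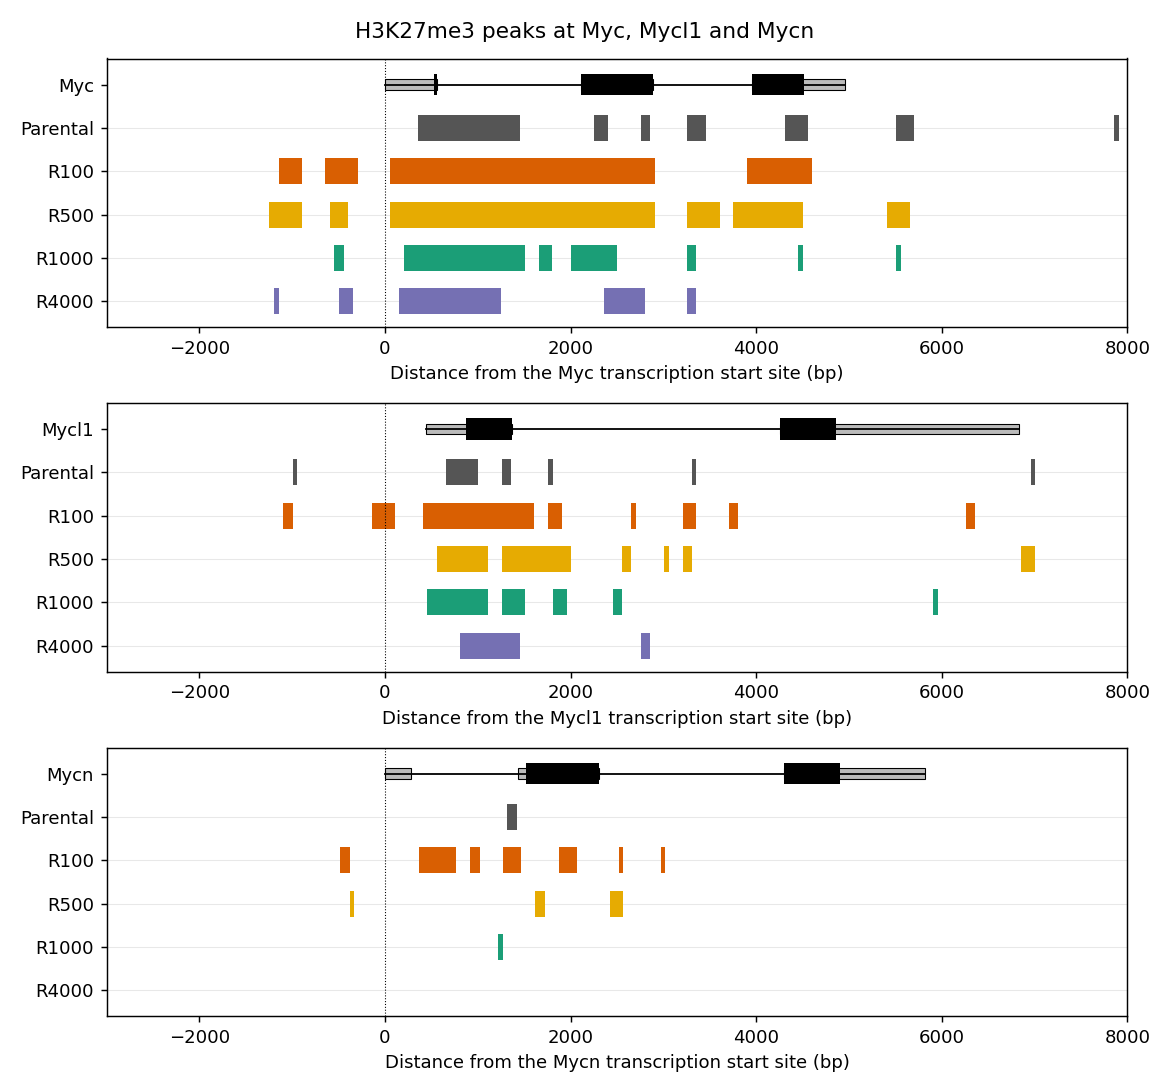
H3K27me3 peaks (coloured bars) of the 5 lines at Myc, Mycl1 and Mycn against the distance from the TSS in bp. The top row of each panel shows the exons of the transcript with the longest coding sequence, coding parts in black; the TSS is the 5′-most of all transcripts, which for Mycl1 lies upstream of the one drawn. The Myc peaks of R100 and R500 run unbroken from exon 1 through exon 2, and R4000 has no peak at Mycn.

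Myc (ENSMUSG00000022346.8, chromosome 15, 61816946 to 61821929, plus strand) was the most covered member in every line. Peaks covered 1800 bp of its window of 9984 bp in the parental line, then 4150, 4500, 2200 and 1850 bp in R100 to R4000. The cover was thus highest in R500 and R100, at 2.50 and 2.31 times the parental bases, while R1000 had 1.22 times and R4000 1.03 times the parental bases. The step from the parental line to R4000 is 50 bp, a single bin. When peaks within 1000 bp were joined, R1000 (4429 bp) and R4000 (3450 bp) lay below the parental line (4629 bp). As a share of the window, Myc was covered over 18% in the parental line and 41.6%, 45.1%, 22% and 18.5% in R100 to R4000. Myc ranked near the top of all genes. Only 0.458% of the 37310 genes had as many or more bases covered in the parental line, and 0.410%, 0.308%, 0.311% and 0.228% had so in R100 to R4000. Most of the 37310 genes had 0 bp covered, 90.3% in the parental line and 75%, 79.8%, 88% and 89.6% in R100 to R4000. By share of the window covered, which takes the length into account, between 0.188% and 0.295% of genes were at or above Myc.

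**Figure D2:**
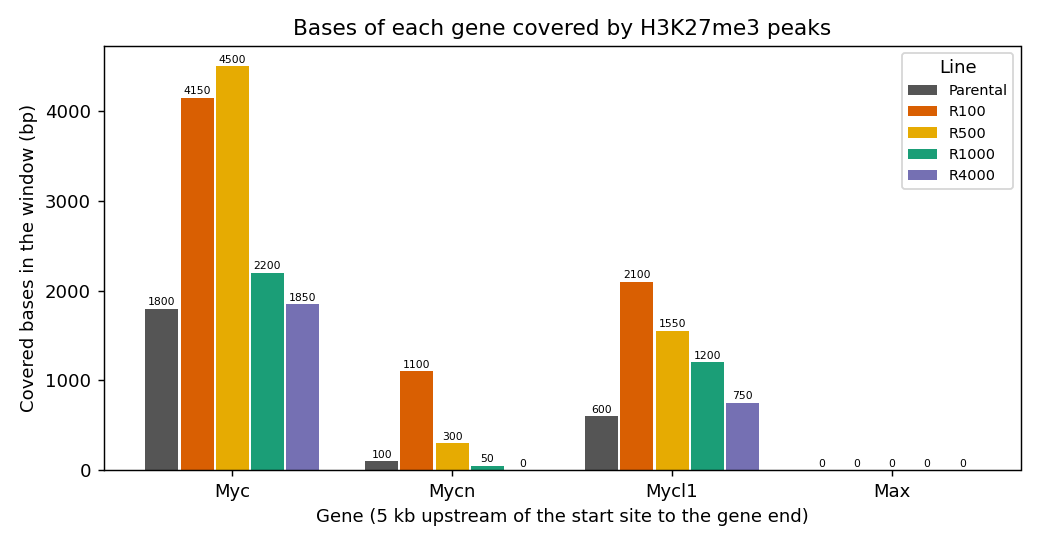
Bases covered by H3K27me3 peaks (bp, y axis, from 0) for each gene and line, with the value above each bar and 1 list per line. Myc has the tallest bars in every line, from 1800 bp in the parental line to 4500 bp in R500, and Max has none.

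Within Myc, exon 1, intron 1 and exon 2 were covered over larger shares than intron 2 and exon 3 in each line. Exon 3 was still covered over 64.7% in R100 and 54.7% in R500. Intron 1 was covered over 894 of 1555 bp in the parental line (57.5%), over its whole length in R100 and R500, over 1205 bp in R1000 (77.5%) and over 694 bp in R4000 (44.6%). Exon 2, which is coding, was covered over 250 of 772 bp in the parental line (32.4%), in full in R100 and R500, over 389 bp in R1000 (50.4%) and over 450 bp in R4000 (58.3%). R100 and R500 each had a single peak of 2850 bp across exon 1, intron 1 and exon 2, where the widest parental peak had 1100 bp. Exon 1 was covered over 206 of 561 bp in the parental line, and 506, 506, 356 and 406 bp in R100 to R4000, so all 4 resistant lines were above the parental line there. Exon 3 had less cover in R1000 and R4000 than in the parental line. It was covered over 250 of 1005 bp in the parental line and over 650 and 550 bp in R100 and R500, but R1000 had 50 bp and R4000 0 bp. The 5 kb upstream had 0 bp in the parental line, then 600, 550, 100 and 200 bp in R100 to R4000. The cover of R4000 therefore equalled that of the parental line within 50 bp but lay further to the 5′ side, and in the gene body alone it was lower than the parental cover by 150 bp (1650 against 1800 bp).

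**Figure D3:**
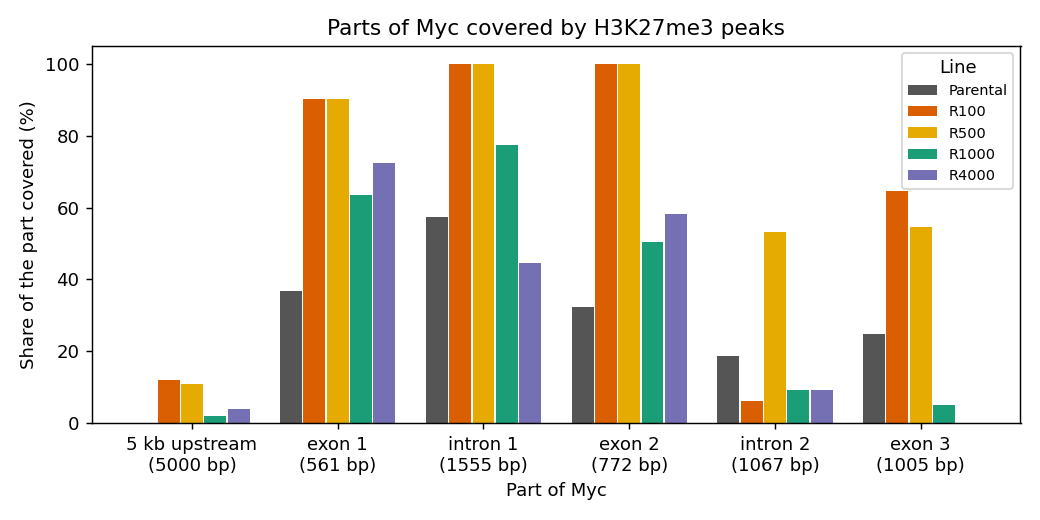
Share of each part of Myc covered by peaks (%, y axis from 0) in the 5 lines, with the length of the part below its name. In R100 and R500 intron 1 and exon 2 are covered in full, and exon 3 has 50 bp (R1000) and 0 bp (R4000) at high dose.

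The positions at Myc were partly the same in all lines. Of the 1800 parental bp, 950 bp (52.8%) were covered in all 5 lines. Most of these formed 1 stretch of 900 bp, from 355 to 1254 bp downstream of the TSS (61817301 to 61818200), which holds the intron sequence shown above, and the other 50 bp lay in exon 2. R100 shared 1600 bp with the parental line, which is 88.9% of the parental and 38.6% of its own bases. R500 shared 1750 bp (97.2% and 38.9%), R1000 1400 bp (77.8% and 63.6%) and R4000 1100 bp (61.1% and 59.5%). R4000 thus shared the fewest bases of the 4 lines with the parental line, although its total was the nearest.

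Few bases were covered around Myc, and fewer still around Mycn, with 0 bp in the 100 kb on both sides in each line. In the 100 kb upstream of the Myc window, 0 bp were covered in each line. The nearest peak on that side lay 2050 kb away in the parental line and 1160, 1160, 2190 and 2790 kb away in R100 to R4000. On the other side, the parental line, R500 and R1000 had a peak within 521 bp of the gene end, and the nearest in R100 and R4000 was 47.8 kb away. Pvt1, the long noncoding RNA gene next to Myc, had 0 bp covered in the parental line, then 50, 100, 0 and 50 bp in R100 to R4000. The nearest protein-coding genes of the annotation, A1bg and Gsdmc, are more than 1000 kb away and had 0 bp covered in each line.

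Mycl1 (ENSMUSG00000028654.7, chromosome 4, 122672895 to 122679728, plus strand) was covered in every line too. Peaks covered 600 bp of its window of 11834 bp in the parental line, then 2100, 1550, 1200 and 750 bp in R100 to R4000. All 4 resistant lines were above the parental line, and each step in dose from R100 on had fewer bases. The ratios to the parental line in R100 to R4000 were 3.50, 2.58, 2 and 1.25. With peaks within 1000 bp joined, R4000 (750 bp) lay below the parental line (1250 bp). As a share of the window the cover was 5.07% in the parental line and 17.7%, 13.1%, 10.1% and 6.34% in R100 to R4000, below that of Myc in each line. Between 0.981% and 2.45% of all genes had as many bases covered or more.

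At Mycl1 most covered bases lay in the first of its pair of coding exons or in the intron after it. Of the 920 bp of this exon, the parental line had 450 bp covered (48.9%) and R100 all. R500 had 661 bp of it (71.8%), R1000 761 bp (82.7%) and R4000 561 bp (61.0%). The intron of 2886 bp had 100 bp covered in the parental line, then 689, 889, 389 and 189 bp in R100 to R4000. R500 thus had more bases in the intron than in the exon, and the other lines had more in the exon. In the last exon of 2581 bp, peaks took 100 bp in R100, 50 bp in R1000 and 0 bp elsewhere. Both stretches covered in all 5 lines lay in the first coding exon, with 200 bp and 100 bp, and together made up 50% of the parental bases. The 5 kb upstream had 50 bp (parental line), 244 bp (R100) and 0 bp elsewhere. Mfsd2a, a lipid transporter gene 34.5 kb away, had 600, 1600, 1550, 1250 and 100 bp covered from the parental line to R4000. Trit1, a tRNA-modifying enzyme gene 14.1 kb away on the other side, had 0 bp in each line.

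Mycn (ENSMUSG00000037169.8, chromosome 12, 12942902 to 12948720, minus strand) was marked mainly in R100. Peaks covered 100 bp of its window of 10819 bp in the parental line, then 1100, 300, 50 and 0 bp in R100 to R4000. R100 had 7 separate peaks, the widest of 400 bp, and R4000 had none. The parental value is 2 bins, so the ratio of 11.0 in R100 rests on a small base. As many bases or more were covered in 7.6% of all genes in the parental line, and in 3.97%, 8.93% and 12% in R100, R500 and R1000. In R100, intron 1 was covered over 658 of 1149 bp (57.3%) and exon 2, the first coding exon, over 242 of 877 bp (27.6%). Exon 3, which holds the rest of the coding sequence, had 0 bp covered in each line. The parental 100 bp lay in intron 1 and were covered in R100, and 0 bp of them were covered in R500, R1000 or R4000. When only the 6820 widest peaks of every list were used, Mycn kept 100 bp in the parental line, then 800 bp in R100 but had 0 bp in the other lines, so that R500 then lay below the parental line. The nearest protein-coding entries, Rpl36-ps3 and the RNA helicase gene Ddx1, had 0 bp covered in each line.

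Max (ENSMUSG00000059436.5, chromosome 12, 78038256 to 78063235, minus strand), the shared partner, had no peak in any line, although its window of 29980 bp is the longest of the 4. In all, 25519 genes (68.4%) had 0 bp in each of the 5 lines. Its neighbour Fntb, a farnesyltransferase subunit gene whose end lies 15.9 kb from Max, had 600 bp covered in the parental line, then 1200, 1150, 850 and 250 bp in R100 to R4000. On that side, the peak nearest to Max lay 113 kb away in the parental line and 112, 113, 114 and 99.2 kb away in R100 to R4000. Fut8, a fucosyltransferase gene 277 kb away, had 0, 100, 0, 50 and 0 bp.

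The start sites of all 4 members were rich in CpG, with 71 CpG within 500 bp on both sides in Myc and Mycl1, 60 in Mycn and 83 in Max, against a median of 19 over all genes. Max, with no peak, had the most. Of the 8615 genes with such a CpG-rich start site (at least 55% GC and an observed over expected CpG ratio of at least 0.65), 3113 (36.1%) had 0 bp covered in each line. Within the windows, covered bases were richer in CpG than the rest. In Myc there were 5.31 CpG per 100 bp in the bases covered in at least 1 line and 1.93 in the others. In Mycl1 these values were 4.57 and 1.65, and in Mycn 5.07 and 2.89. The part of CpG content in the calling of peaks was not tested.

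Counted together, 2 of the 4 members were covered in the parental line and 3, 3, 2 and 2 in R100 to R4000. From the parental line to R4000, a minimum of 50 bp gave 3, 3, 3, 3 and 2 members. A minimum of 500 bp gave 2, 3, 2, 2 and 2. Myc and Mycl1 counted each time, so Mycn alone set these changes. By the 150 bp rule, the shares over all genes were 5.82%, 15.8%, 12.7%, 6.63% and 5.39%. Among genes with a CpG-rich start site these shares were 11.9%, 34.5%, 26.9%, 14.7% and 12.5%. Myc and Mycl1 were covered in all 5 lines, as were 3.37% of all genes. With at least 150 bp more than the parental line as the rule, 3 members were higher in R100, where 14.8% of all genes were, and 3 in R500, where 11.6% were. In R1000 there were 2 (Myc and Mycl1) against 3.69% of all genes, and in R4000 there was 1 (Mycl1, by 150 bp) against 2.35%. At least 150 bp fewer were covered in 0 members in each line, against 0.566%, 0.504%, 2.51% and 3.70% of all genes in R100 to R4000. Mycn (100 bp) and Max (0 bp) had too few parental bases for such a fall, so this count rests on Myc and Mycl1. Of all genes, only the 5.82% covered in the parental line could fall by as much.

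Since R100 and R500 held more peaks at large, the ratios of Myc and Mycl1 were set beside those of the 2170 genes covered in the parental line. Their median ratios to the parental line in R100 to R4000 were 2.40, 2.28, 0.875 and 0.5. In R100 and R500 the ratios of Myc lay close to these medians, at 2.31 and 2.50, and those of Mycl1 lay above them, at 3.50 and 2.58. In R1000 and R4000 both genes were above the medians, from the peaks as listed. The 2170 genes were chosen by their parental cover, which favours falls. Their median cover in the parental line was 407 bp, against 1800 bp in Myc and 600 bp in Mycl1. No set of genes matched for parental cover was compared. More bases than in the parental line were covered in 84.4% of the 2170 genes in R100, 84.0% with R500, 40.7% with R1000 and 20.6% with R4000, and Myc and Mycl1 belonged to these each time. Fewer bases were covered in 14.0%, 13.9%, 54.9% and 75.2%. Both genes also had R100 and R500 above the parental line and above R1000 and R4000, an order seen in 74.1% of the 2170 genes. With 1 list per line it was not tested whether this exceeds the variation between libraries.

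**Figure D4:**
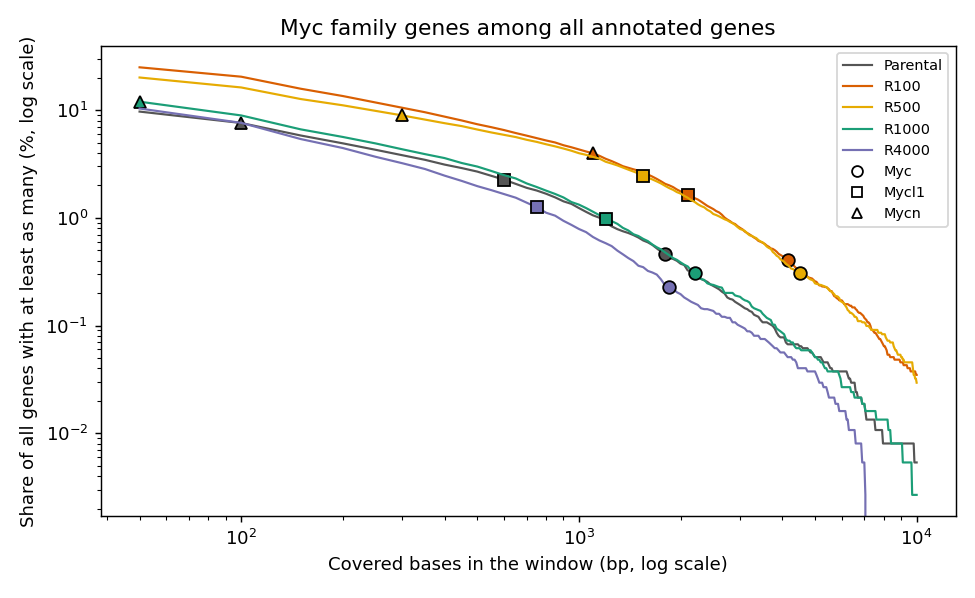
Share of all 37310 genes with at least a given number of covered bases (%, log scale) against that number (bp, log scale), 1 curve per line, with Myc, Mycl1 and Mycn as symbols in the colour of the line. Myc lies at 0.228% to 0.458%, Mycl1 at 0.981% to 2.45% and Mycn at 3.97% to 12%. Values of 0 (Max, and Mycn in R4000) cannot be shown.

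The genes most like each member, by the sum of absolute differences in covered bases over the 5 lines, were named for protein-coding genes. Nearest to Myc was Tmem59l, a transmembrane protein gene on chromosome 8, with 1750, 4057, 3957, 1900 and 2000 bp from the parental line to R4000 and a sum of 1136 bp. It was followed by Grhl3, a transcription factor gene of the epidermis (1250 bp), and Ntng2, a netrin family gene (1650 bp). Nearest to Mycl1 were Rtbdn (650 bp), Dusp14, a phosphatase gene (700 bp), and Cbr3, a carbonyl reductase gene (750 bp). Nearest to Mycn were Rtn4rl2, a Nogo receptor family gene (150 bp), the Wnt ligand gene Wnt7a (150 bp) and the natriuretic peptide gene Nppc (200 bp). These sums grow with the number of covered bases, so they do not compare between members.

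Of 9 genes of the network (the Mxd repressors with Mxi1, Mnt, Mga, Mlx and the Mlx partners Mlxip and Mlxipl), 1 (11.1%) was covered in each line, against 7.67% of protein-coding genes in the parental line and 21.7%, 17.0%, 8.86% and 7.05% in R100 to R4000. The list's share was above that of protein-coding genes in the parental line, R1000 and R4000 and below it in R100 and R500, and 1 gene sets it. This gene was Mlxipl, which encodes the glucose sensor ChREBP. Peaks covered 850 bp of it in the parental line, then 2150, 2400, 1750 and 750 bp in R100 to R4000. Its highest values were in R100 and R500 and its lowest in R4000. Mxd1, Mxd3, Mxd4, Mlx and Mlxip had 0 bp in each line, and Mxi1, Mnt and Mga at most 100 bp. The median was 0 bp in each line for the list and for all genes.

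Of 16 cofactors and regulators of Myc, 0 were covered in the parental line and 1, 2, 0 and 1 in R100 to R4000, with a median of 0 bp in each line. These shares of 0%, 6.25%, 12.5%, 0% and 6.25% were below the 7.67%, 21.7%, 17.0%, 8.86% and 7.05% of protein-coding genes. Each share rests on at most 2 genes, and no test of this difference was made. Bin1, whose product binds Myc and curbs its activity, had 100 bp in the parental line, then 600, 650, 0 and 0 bp in R100 to R4000. The helicase gene Ruvbl1 had 50 bp in R500 and 350 bp in R4000. Ruvbl2, its partner, had 0 bp in the parental line, then 50, 150, 100 and 0 bp in the others. The ubiquitin ligase genes Skp2, Fbxw7 and Huwe1, which control the turnover of Myc, had 0 bp in each line.

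Of 24 well-known Myc targets, 3 were covered in the parental line and 15, 11, 8 and 7 in R100 to R4000. The shares of 12.5%, 62.5%, 45.8%, 33.3% and 29.2% were above those of all protein-coding genes given for the Max network in each line. Among genes with a CpG-rich start site the shares were 11.9%, 34.5%, 26.9%, 14.7% and 12.5%. The list was above these in R100 to R4000 and near them in the parental line, where 3 genes set its share. The list was chosen with earlier results of these data known, and no test of these differences was made. The median of the list was 0 bp in the parental line, then 250, 100, 50 and 50 bp in R100 to R4000, where that of all genes was 0 bp in each. The 15 include Hspd1 and Hspe1, overlapping chaperonin genes with the same covered bases in every line, so their peaks may count 2 times. At least 150 bp more than the parental line were covered in 15, 11, 8 and 5 targets in R100 to R4000, and at least 150 bp fewer in 2 targets, both in R4000. Over all genes the shares with more were 14.8%, 11.6%, 3.69% and 2.35%, and 3.70% had fewer in R4000.

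Ccnd2, which encodes cyclin D2, had the most bases among the targets, with 3866 bp in the parental line, then 5600, 5666, 4316 and 3616 bp in R100 to R4000. R100 and R500 were highest and R4000 was below the parental line. Shmt2, an enzyme of one-carbon metabolism, had 1191, 2941, 3091, 1500 and 1391 bp in the same order. Cdk4, the kinase partner of D-type cyclins, had 450, 811, 1150, 661 and 250 bp. These genes were the only targets covered in the parental line. Ncl, which encodes nucleolin, went from 0 bp in the parental line to 1000, 1150, 200 and 400 bp in R100 to R4000. The glycolysis genes Ldha (100, 500, 700, 500 and 600 bp) and Eno1 (0, 450, 700, 400 and 500 bp) stayed above the parental line in each resistant line. Eif4e and Tert had 0 bp in each line.

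**Figure D5:**
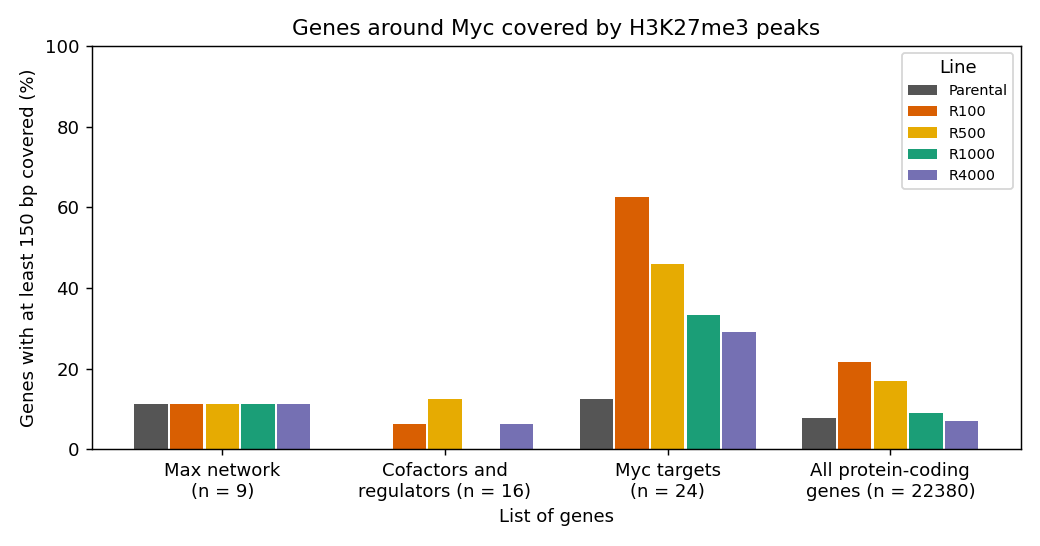
Share of genes with at least 150 bp covered (%, y axis from 0) in 3 lists around Myc and in all protein-coding genes, 1 bar per line. The targets reach 62.5% in R100 against 21.7% of protein-coding genes, and the Max network stays at 1 gene of 9 in every line. The lists were chosen with earlier results of these data known.

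Among other Myc-like genes, Bmyc on chromosome 2 had 100 bp covered in the parental line, then 350, 700, 0 and 0 bp in R100 to R4000. It was thus covered in R100 and R500 alone. Mycs on chromosome X had 0 bp in each line.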

How the data were processed

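H3K27me3 ChIP-seq of 5 lines was analysed, with 1 sample each. The authors precipitated chromatin with an anti-H3K27me3 antibody, sequenced it as 50-bp reads and took as peaks those tiling windows enriched over input by a Poisson test. The deposited lists give chromosome, start and end in mm9, with no count or score. The submitters' processing notes name Bowtie. For its promoter clusters the study asked for 3 bins of 50 bp past a p-value limit. The study gives n = 2 for these clusters and reports a high correlation between its replicates. Whether that limit also made the lists, which hold peaks of a single bin, and whether replicates were pooled are not given in the sources used here. No peak lay beyond its chromosome in NCBIM37. Every peak of R100 and R500 is listed 2 times and was counted once, while the other lists give each peak once. R100 and R500 also held the most peaks, and the effect of how the lists were made was not tested.

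Python 3.11.15 and numpy 2.4.6 served to count covered bases over windows from 5 kb upstream of the TSS to the gene end. This step was tested on simulated data, where 0 of 2000 windows were wrong. Exons follow the transcript with the longest coding sequence. Named genes are the members, up to 6 genes per list with at least 150 bp in a line, the nearest protein-coding genes on each side, and the 3 genes most alike. Other list genes (Pvt1, Mycs and those given at or near 0 bp) were named after their values were seen. Members and lists were chosen with earlier results of these data known. Alternatives were minimum peak widths, joined peaks, lists of equal number, other windows and other minimums. Intervals for the alternatives used scipy 1.17.1 and figures matplotlib 3.10.9.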

Additional observations from a re-analysis of the deposited data

Results flagged for a closer look

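Mycn moved in opposite directions in the low-dose and high-dose lines. Against the parental line, its covered bases differed by 1000 bp (R100) and 200 bp (R500), but by -50 bp (R1000) and -100 bp (R4000). The difference between the pairs of lines was not tested, and the falls are 1 and 2 bins of the peak grid. Of the 2170 genes covered in the parental line, 84.4% and 84.0% had more bases in R100 and R500. In R1000 and R4000, 54.9% and 75.2% of them had fewer, but these genes were chosen by their parental cover, which favours falls. Over all genes, 3.69% had at least 150 bp more in R1000 and 2.51% at least 150 bp fewer. In R4000 these shares were 2.35% and 3.70%. With 100 bp in the parental line, Mycn is below the 150 bp rule and not among the 2170 genes.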

How the results depend on the processing

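Depth is unknown and there is 1 list per line, so a difference of a few bins between lines cannot be told from variation between libraries. Max had 0 bp under every setting run. Of 105 covered-base values of Myc, Mycn and Mycl1 under other settings, 59 stayed within the 95% Wilson interval of the share of bins covered, 38 moved beyond it, and 8 turned the direction against the parental line. These intervals treat neighbouring bins as independent, although peaks join bins, so they do not measure variation between libraries. Some settings also change the window, which alone changes the bases that can be covered. No paired analysis was possible because there is 1 sample per group and no test.

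With peaks at least 500 bp wide, 1 member was covered in the parental line. Myc then had 1100 bp in the parental line, 3600 bp in R500 and 1100 bp in R4000, Mycl1 had 0 bp there, 1200 bp in R100 and 650 bp in R1000, and Mycn had 0 bp in each line. With peaks at least 100 bp wide, Mycn had 0 bp in R1000.
With peaks within 1000 bp joined, Myc had 4629, 5750, 6229, 4429 and 3450 bp from the parental line to R4000, so that R1000 and R4000 fell below the parental line, since joining fills the gaps between peaks. Mycl1 had 1250, 5000, 2750, 2150 and 750 bp, with R4000 below the parental line, and Mycn had 3500 bp in R100 and 1000 bp in R500.
With lists of equal number, Mycl1 had 1450 bp in R100, and Mycn had 0 bp in R500, below the parental line, and 0 bp in R1000. In the gene body only, Myc had 1650 bp in R4000, below the parental line.
In the 2 kb flanking the TSS either way, Myc had 1100, 2546, 2496, 1550 and 1300 bp in the 5 lines.
In the 5 kb upstream only, 0 members were covered in the parental line, 1 in R500, 0 in R1000 and 1 in R4000. Myc then had 0, 600, 550, 100 and 200 bp, Mycn had 0, 100, 50 and 0 bp up to R1000, and Mycl1 had 50, 244, 0, 0 and 0 bp, which put its R500, R1000 and R4000 values below the parental line.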
